A study of Homo sapiens with 4 samples.

Results

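The widest 53BP1 regions of MCF10A cells are described here. They were chosen by width alone, as the rows of the authors' 53BP1 list on chromosomes 1 to 22 that spanned 1500 bp or more. The rule found 391 regions, which were 3.44% of the 11370 rows on these chromosomes and held 11.8% of their bases. The list as deposited has 11605 rows.

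The series is a set of chromatin immunoprecipitations with sequencing (ChIP-seq) in MCF10A, a single established line of non-tumour human breast epithelial cells, grown under normal conditions and fixed with formaldehyde. No treatment is named in the labels. The 3 ChIPs used were of 53BP1 and of 2 forms of RNA polymerase II (Pol II), one carrying phosphate on serine 5 of its C-terminal repeats (S5p) and the other on serine 2 (S2p). Each had 1 library, so no value here has a replicate and no test was made. An input, labelled as the remaining sample of the series, was not analysed here.

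53BP1 is a chromatin protein best known for the repair of DNA double-strand breaks, where it binds modified histones, recruits further factors and favours end joining over resection of the ends. It was first found as a partner of p53, and the title of the series places it in transcription driven by the p53 family. Pol II is marked with S5p early in the transcription cycle, mostly near starts, and gains S2p as it elongates through genes, with much of it towards their ends. A region in these lists is a stretch of enriched DNA, its summit is the point of highest enrichment, and its fold enrichment is the authors' ratio over background.

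The depth of the libraries, on which the width of a called region can depend, was unknown. A row reports 1 summit, so whether a wide region held several maxima could not be read. No 53BP1 row was narrower than 213 bp, and no row lay closer to the next than 214 bp. Intervals given below are 95% intervals over regions (exact Clopper-Pearson for shares, order statistics for medians). They treat each region as independent and reflect counting error alone, not a spread between cultures. Regions were named by position in hg19, because the gene table at hand was of another genome build.

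The width distribution of the 391 regions fell off steeply from the limit. The median was 1857 bp (quartiles 1657 and 2404), 235 regions spanned 1500 to under 2000 bp, 156 spanned 2000 bp or more, 51 spanned 3000 bp or more and 12 spanned 5000 bp or more. Just inside the limit were regions of 1500, 1501, 1502, 1505 and 1506 bp, with 53BP1 folds of 7.33 to 10.7. Just outside it were 5 regions from 1493 bp up to 1 bp under the limit, with folds of 5.92 to 10.4. The regions on either side of the limit thus covered nearly the same range of fold.

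The wide regions differed much in strength. The 53BP1 fold of the 391 regions ran from 2.68 to 115, with a median of 9.45 (quartiles 7.17 and 14.0), against a median of 6.04 over all 11370 regions. They held 4 of the 10 regions of highest fold in the list and 28 of the highest 100. The upper 20% of the list by fold contained 217 of them (55.5%, against 20% of all regions), and 53 (13.6%) lay under the list's median fold, against 49.9%. Fold comes from the library that gave the width, so these shares describe the choice. The 53BP1 summit lay in the middle 50% of the region in 69.1% of the 391, and in 79.5% of all regions.

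Every one of the 391 regions met a Pol II S5p region by at least 1 bp (391 of 391, interval 99.1 to 100%), where 97.6% of all 53BP1 regions did. Every one of these S5p regions was in the strongest 20% of the S5p list by fold, against 92.6% of all 53BP1 regions. In 379 cases (96.9%) the 53BP1 region lay wholly inside a single S5p region, against 94.7% in the list. These shares were close to those of the whole list. The gap was wider at the top of the S5p list: 153 of the 391 (39.1%, 34.3 to 44.2) lay on the strongest 1% of S5p regions, against 9.26% of all 53BP1 regions.

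On S2p the wide regions stood further from the list as a whole. An S2p region was met by 390 of the 391 (99.7%, 98.6 to 99.99), against 78.9% of all 53BP1 regions, and 337 (86.2%) were covered fully by S2p, against 52.4%. The strongest 20% of the S2p list held 361 of them (92.3%, 89.2 to 94.8), against 47.2%, and its strongest 1% held 168 (43.0%, 38.0 to 48.0), against 9.47%. The 1 region without S2p was on chromosome 7 at 29602504 to 29604262. It was 1759 bp wide with a 53BP1 fold of 6.12, and its S5p region of 2768 bp had a fold of 14.0, in the 85.4th percentile of the S5p list.

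The Pol II regions under the widest 53BP1 regions were long as well as strong. Their S5p regions had a median width of 12184 bp (interval 10794 to 13090, quartiles 5828 and 20361). Under 53BP1 regions of 1000 to under 1500 bp (1125 regions) the median S5p width was 5579 bp (5048 to 6211). Under those below 1000 bp (9854 regions, 9581 of them on S5p) it was 2753 bp (2690.0 to 2828). The median S2p width was 10806.5 bp (9350.0 to 12524), against 3713 and 1960.0 bp in the narrower classes. Here and below, medians of Pol II values leave out 53BP1 regions without that mark. For S2p they rest on 390 widest, 1104 middle and 7482 narrow regions. From the narrowest to the widest class the median S5p fold was 29.4, 45.4 and 61.1. The median S2p fold was 6.49, 9.62 and 31.5 (interval of the last 25.1 to 41.1). Both folds were thus highest under the widest regions, with the larger step in S2p. S5p regions of 10 kb or more held 234 of the 391 (59.8%), against 22.2% of all 53BP1 regions.

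**Figure D1:**
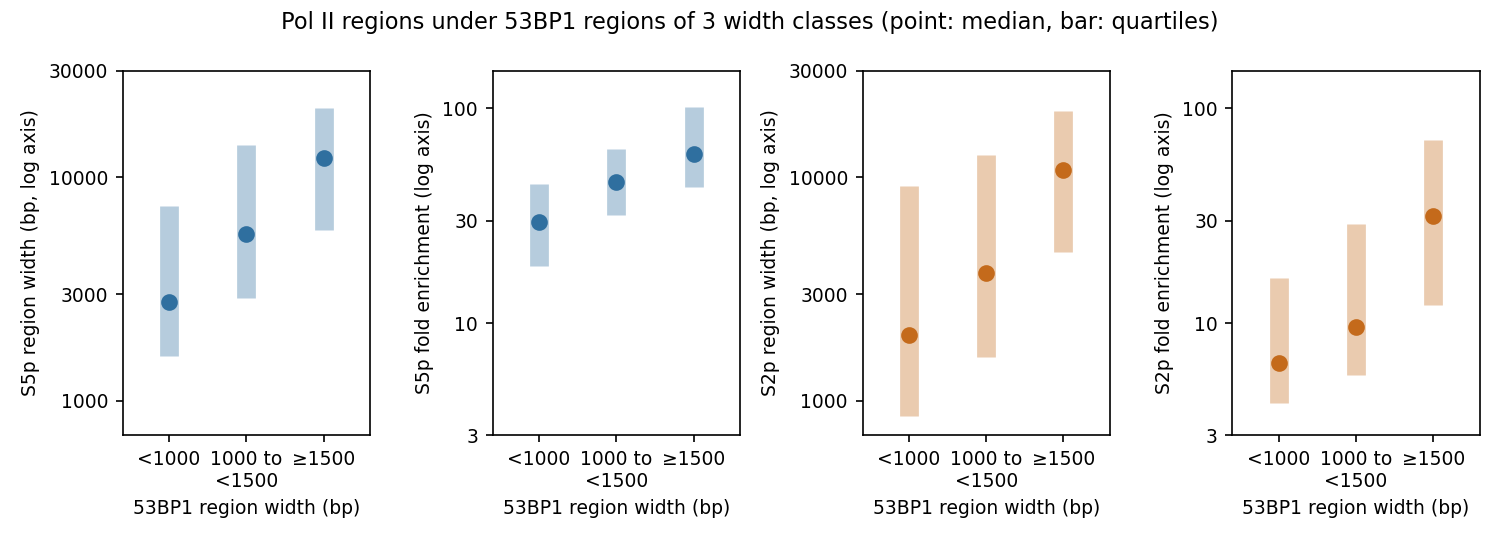
Width in bp and fold enrichment of the S5p (blue) and S2p (orange) regions met by 53BP1 regions of 3 width classes in bp, on log axes. Of the 9854, 1125 and 391 regions in these classes, 9581, 1125 and 391 met S5p and 7482, 1104 and 390 met S2p. Points are medians and bars run from the lower to the upper quartile; all 4 medians are highest under the widest 53BP1 regions, where the S2p fold has a median of 31.5.

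Pol II regions were also longer under wide 53BP1 regions when regions of like 53BP1 fold were compared. In the upper 20% of the 53BP1 list by fold, the 217 widest regions had a median S5p width of 12053 bp (10200.0 to 13090) and the 1575 regions under 1000 bp a median of 3576 bp (3361 to 3859). The median S2p fold in that 20% was 31.2 (21.3 to 43.1) for the widest and 7.64 (7.38 to 7.99) for the narrow regions. In the middle 20%, where the fold was lower, the 50 widest regions had a median S5p width of 11434 bp (9691 to 15693), against 2441 bp for 2014 narrow ones. Their S2p folds had medians of 38.5 and 5.54. Wide and narrow 53BP1 regions were thus apart at high and at moderate 53BP1 fold.

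Seen from the Pol II side, the 391 regions fell in 357 S5p regions, 325 with 1 of them, 30 with 2 and 2 with 3. Of all 61263 S5p regions these were 0.583%. The share was 2.29% (1.79 to 2.90) of S5p regions of 5 to 10 kb, 8.42% (7.03 to 9.99) of those of 10 to 20 kb and 14.3% (11.6 to 17.4) of those of 20 kb or more. In the strongest 1% of S5p it was 132 of 613 (21.5%, 18.3 to 25.0), although each of these 613 held 53BP1 of some width. In the strongest 1% of S2p it was 145 of 535 (27.1%, 23.4 to 31.1), where 451 held any 53BP1, against 0.67% of all S2p regions. A wide 53BP1 region was thus the exception even on the longest and strongest Pol II regions.

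Wide 53BP1 regions often had a neighbour. Another 53BP1 region lay within 5 kb of 207 of them (52.9%, 47.9 to 58.0), against 25.5% of all regions, and the median gap to the next 53BP1 region was 3952 bp, against 27402 bp. The same S5p region held a further 53BP1 region in 247 cases (63.2%), against 26.1%. There were 144 wide regions alone in their S5p region, 105 with 1 companion and 142 with 2 or more, up to 10 regions in all. Long S5p regions hold more 53BP1 regions of any width: within S5p regions of 10 kb or more, 62.4% of the widest, 45.2% of the middle class and 49.8% of the narrow class had a neighbour within 5 kb.

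The 391 regions divided by which Pol II summit they covered. Both the S5p and the S2p summit were inside in 169, the S5p summit alone in 91, the S2p summit alone in 93 and neither in 38. The S5p summit was therefore inside 260 (66.5%, 61.6 to 71.2), against 74.6% of all 53BP1 regions, and the S2p summit inside 262 (67.0%, 62.1 to 71.7), against 48.2%. A wider region covers more ground, which bears on both shares. At like S5p length the share with the S5p summit inside was not lower throughout. In S5p regions under 5 kb that summit was inside 97.6% of the widest and 87.4% of all 53BP1 regions. At 5 to 10 kb it was inside 68.1% (56.0 to 78.6) and 70.4%, and at 10 kb or more inside 54.7% and 49.6%. Wider regions cover more ground at like S5p length too. By distance, the S5p and 53BP1 summits were within 500 bp for 57.5% (52.5 to 62.5) of the widest and 77.5% of all 53BP1 regions. In S5p regions under 5 kb these shares were 78.8% (68.6 to 86.9) and 91.7%, so by distance the widest were lower there as well. The 169 with both summits sat on compact Pol II regions, with median widths of 5736 bp for S5p and 4367 bp for S2p and a median S2p fold of 12.9. The 93 with the S2p summit alone sat on long ones, 13919 and 15161 bp, with a median S2p fold of 81.8 and a median 53BP1 fold of 8.02. The 91 with the S5p summit alone had the highest median 53BP1 fold of these groups, 11.3, on S5p regions of 16420 bp. The 38 with neither had the lowest, 6.52, on S5p regions of 20181 bp.

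The position moved with width among the wide regions themselves, and so did the length of their S5p regions. The S5p summit was inside 180 of 235 regions of 1500 to under 2000 bp (76.6%, 70.7 to 81.9), 63 of 105 of 2000 to under 3000 bp (60.0%, 49.98 to 69.4) and 17 of 51 of 3000 bp or more (33.3%, 20.8 to 47.9). The S2p summit was inside 153 (65.1%), 65 (61.9%) and 44 (86.3%, 73.7 to 94.3) of them. Their S5p regions had median widths of 10515, 12742 and 20181 bp. The 3 classes were not compared at like S5p length, so width and S5p length are not separated here. In these classes the 53BP1 and S5p summits were a median of 104, 160.0 and 5143 bp apart, and the 53BP1 and S2p summits 558, 766 and 709 bp. Over all 391 the S5p value was 192 bp, and with the limit at 2000 bp it was 1472.5 bp. The median S2p fold was 19.1, 45.6 and 73.7 (63.5 to 97.2 in the last). Of the regions of 3000 bp or more, 37 (72.5%, 58.3 to 84.1) had their 53BP1 summit nearer to the S2p than to the S5p summit, against 42.1% of the 390 and 35.8% of the list. Over the 390 regions on both marks, the Spearman rho of width was 0.355 with S2p fold and 0.218 with S5p fold. Over the 8941 such regions of the whole list the order was the other way, with 0.153 for S2p fold and 0.314 for S5p fold. Regions in the same Pol II region share its fold, and a set cut by width holds a restricted range of widths, so these rhos are a description only.

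**Figure D2:**
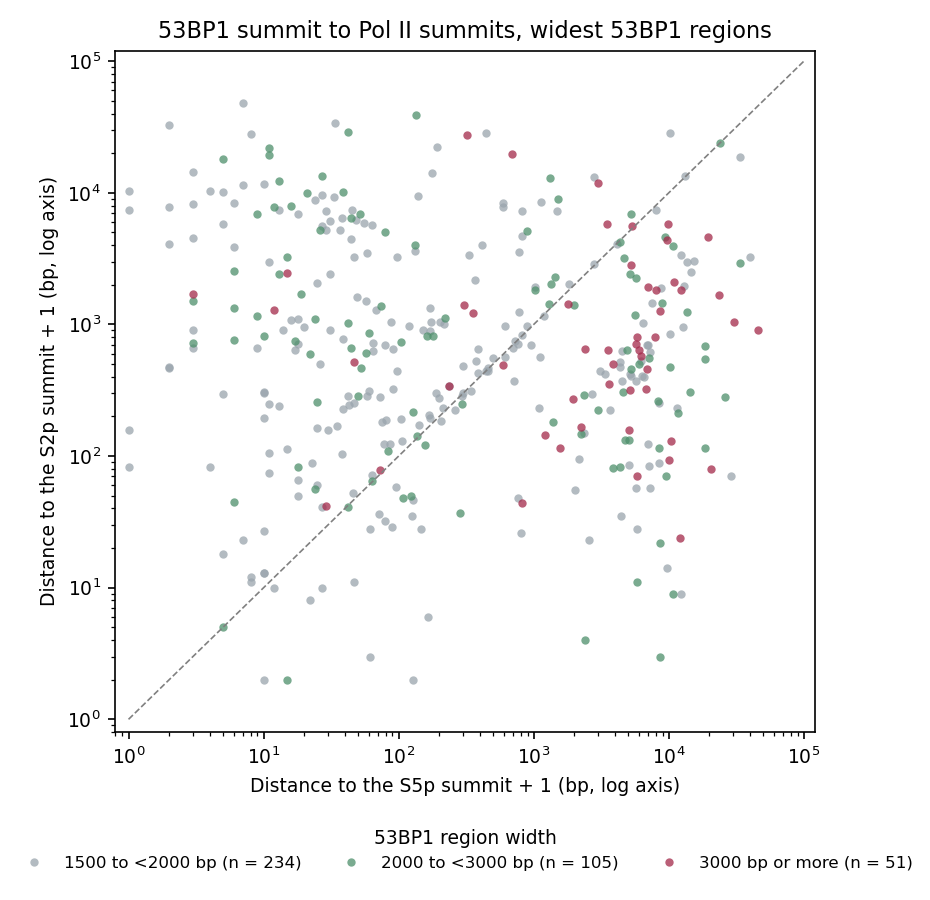
Separation of the 53BP1 summit from the S5p (horizontal) and S2p (vertical) summits, in bp plus 1 on log axes, for the 390 widest 53BP1 regions on both marks, coloured by width. Points under the dashed line of equal distance are nearer to the S2p summit; 37 of the 51 regions of 3000 bp or more are there, most of them kilobases from the S5p summit.

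In long Pol II regions, narrow 53BP1 regions too lay far from the S5p summit. Within S5p regions of 20 kb or more, the S5p summit lay a median of 823 bp away (177 to 3832) for 103 widest regions, 128.5 bp for 168 of the middle class and 2170.0 bp (1450.0 to 2930.0) for 756 narrow ones. The intervals of the widest and the narrow class overlap. The S2p summit was inside 52.4% (42.4 to 62.4) of these widest regions, 35.7% of the middle class and 24.2% of the narrow class, where the widths themselves differ. The distance to the S2p summit had medians of 1664 bp (914 to 3023), 4295 bp (2071 to 5995) and 3543 bp (2783 to 4293).

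Regions with a 53BP1 summit 1 kb or more from the S5p summit were then set apart. There were 145 among the widest regions (37.1%, 32.3 to 42.1) and 1353 among those under 1000 bp (14.1%). The widest lay at a median of 560.0 bp from the S2p summit (418 to 803), the middle class at 1219.5 bp (818 to 1645) and the narrow class at 1568 bp (1423 to 1695). The S2p summit was within 500 bp for 68 of 144 widest regions on S2p (47.2%, 38.9 to 55.7) and for 346 of 1255 narrow ones (27.6%, 25.1 to 30.1). It was on the same side of the S5p summit as the 53BP1 summit in 91.7% (85.9 to 95.6) of the widest and 83.9% (81.8 to 85.9) of the narrow. Their S5p regions had similar median widths of 14572 and 14124 bp, while the median S2p fold was 67.5 and 30.6.

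Where a wide region did not cover the S5p summit, another 53BP1 region was usually at or near it. Of the 131 such regions, 126 had a separate 53BP1 region of the same S5p region within 500 bp of the S5p summit. Some of these separate regions served several wide regions and are counted for each, so the 126 are not all different. A 53BP1 region near the S5p summit was also common for narrower 53BP1 regions whose summit lay 1 kb or more from it. It was present for 90.1% of the middle class, 81.8% of the narrow class and 83.2% of all. Of the 145 widest regions that far away, 126 (86.9%, 80.3 to 91.9) had one. These 145 are the 131 and some wide regions that covered the S5p summit themselves. A region under 1000 bp cannot cover it from that distance, so 126 of 131 is the nearer match to the narrow class. The region at the S5p summit was itself 1500 bp or wider in 30 of the 126 cases. It was narrower in 117 of the 126, with medians of 982 bp against 2142.5 bp, as a choice by width would favour. It was nonetheless the stronger of the pair in 105, with a median fold of 13.9 against 7.55. The wide region was nearer to the S2p summit in 112 of the 126, at a median of 524 bp against 6292 bp. Pairs were not drawn up for off-summit regions of other widths, so only other measures can be given for them. At 1 kb or more from the S5p summit, 80.2% of the middle class and 75.5% of the narrow class were nearer to the S2p than to the S5p summit, against 87.5% of the widest. The median fold of such narrow regions was 4.41, against 5.67 for all narrow ones. Both folds of a pair are from the library that chose the wide regions and are a description.

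The widest 53BP1 region of all was on chromosome 13 at 45897138 to 45909146. It spanned 12009 bp with a 53BP1 fold of 11.2 and covered 51.1% of an S5p region of 23492 bp. Its S5p fold was 59.8 and its S2p fold 97.2, and its summit was 10924 bp from the S5p summit and 2107 bp from the S2p summit. At the S5p summit of the same region stood a 53BP1 region of 1610.0 bp, at 45914471 to 45916080, with a fold of 10.0. Here the long and the short region had nearly equal folds.

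The second, on chromosome 4 at 15934436 to 15942971, spanned 8536 bp (fold 11.8) in an S5p region of 29241 bp, 19612 bp from the S5p summit and 4650.0 bp from the S2p summit. The third, on chromosome 1 at 209600931 to 209609387, was different. It spanned 8457 bp (fold 26.7) and filled 93.7% of its S5p region of 9025 bp, in which it was the only 53BP1 region. It covered both summits, with an S5p fold of 159.6 and an S2p fold of 165. The fourth, on chromosome 12 at 52645921 to 52653584, spanned 7664 bp (fold 16.3) in an S5p region of 31734 bp with 10 53BP1 regions. One of these was also a wide one, of 2145 bp at 52625712 to 52627856, and lay 10 bp from the S5p summit with a fold of 16.9. The region next in width, on chromosome 1 at 28836886 to 28843830, spanned 6945 bp (fold 25.9). A region of 1256 bp at the S5p summit of the same Pol II region had a fold of 34.0.

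The next 10 by width ran from 6555 down to 4653 bp. On chromosome 16 they were at 1826577 to 1833131 (fold 6.30), 2198561 to 2204099 (fold 10.3) and 89784976 to 89789628 (fold 8.72). On chromosome 1 they were at 27327552 to 27334065 (fold 10.8) and 150538775 to 150545219 (fold 4.92, the lowest of the 15). On chromosome 17 they were at 38625396 to 38631096 (fold 20.8) and 57919648 to 57924437 (fold 46.7, the highest of the 15). The remaining 3 were at 52674338 to 52679533 on chromosome 12 (fold 21.2), chromosome 6 at 30580785 to 30585889 (fold 18.7) and chromosome 5 at 176852638 to 176857601 (fold 7.48). The region at 38625396 lay in the S2p region of highest fold in the S2p list, 239.96, and its summit was 1048 bp from that S2p summit and 30172 bp from the S5p summit. The region at 57919648 had its summit 69 bp from the S2p summit and 5786 bp from the S5p summit.

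Of these 15, 14 covered the S2p summit (93.3%, 68.1 to 99.8), against 48.2% of all 53BP1 regions. The S5p summit was inside 4 (26.7%, 7.79 to 55.1), against 74.6%. These 15 cover the most ground by choice, and their S5p regions were long, with a median of 24567 bp. The exception for S2p was the region on chromosome 5, whose summit was 684 bp from the S5p summit and 19595 bp from the S2p summit. The 15 had a median S2p fold of 97.2, and 14 of them lay on the strongest 1% of S2p regions, against 9.47% of all 53BP1 regions.

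**Figure D3:**
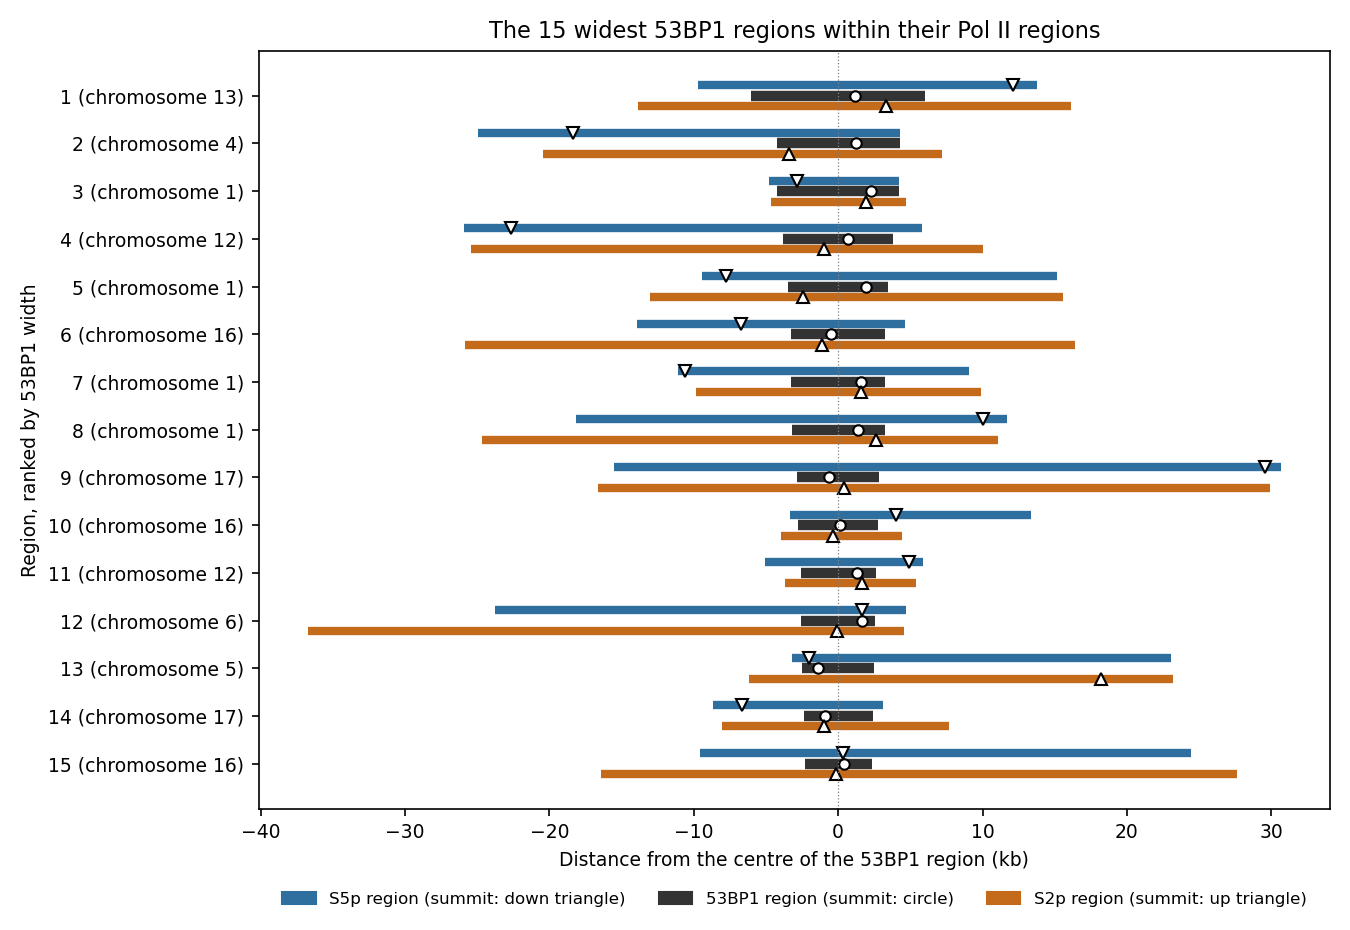
The 15 widest 53BP1 regions (black) with the S5p (blue) and S2p (orange) regions they meet, drawn to scale in kb from the centre of each 53BP1 region, with summits as open symbols. In 14 of the 15 rows the S2p summit falls inside the black bar, and in 4 the S5p summit does.

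A different picture held for the 10 wide regions of highest 53BP1 fold outside those 15. The first 4 lay on short Pol II regions and covered 83.4% to 90.8% of them. On chromosome 1 at 149222457 to 149224941 the 53BP1 region was 2485 bp wide, with the highest fold of the list (115), on an S5p region of 2609 bp with a fold of 206. On chromosome 12 at 120728873 to 120731365 it was 2493 bp (fold 82.6) on an S5p region of 2870.0 bp. On chromosome 1 at 210546056 to 210547903 and at 45195575 to 45197182 the 53BP1 regions, of 1848 and 1608 bp with folds of 79.8 and 71.1, were wider than their S5p regions of 1528 and 1433 bp. Among the 391 this was so in 1 further case, on chromosome 21 at 46493387 to 46494957. In these 4 regions of high fold, S5p and S2p summits were at most 135 and 142 bp from that of 53BP1, and the S2p folds were 11.6 to 25.0.

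The other 6 were more varied. A region on chromosome 1 at 11967932 to 11970214 (fold 47.5) resembled the first 4, with an S5p region of 2707 bp. Those on chromosome 22 at 43010242 to 43012098 (fold 66.9), chromosome 12 at 7052068 to 7053818 (fold 57.8), chromosome 11 at 62432154 to 62436384 (fold 38.0), chromosome 8 at 101733557 to 101735248 (fold 34.4) and chromosome 5 at 170814241 to 170815928 (fold 33.3) lay in S5p regions of 12473 to 34045 bp. All 10 had their summit at most 135 bp from that of S5p, unlike most of the 15 widest.

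Some wide regions took up little of a very long Pol II region. The longest S5p region with one spanned 122000 bp on chromosome 14, where a 53BP1 region of 1762 bp at 69444397 to 69446158 (fold 7.23) lay 17 bp from its S5p summit and was the only 53BP1 region in it. The next 3 had S5p regions of 70443, 69753 and 68114 bp and 53BP1 summits 6 to 67 bp from the S5p summit. They were on chromosome 1 at 154192745 to 154194246, chromosome 2 at 208030281 to 208031959 and chromosome 12 at 6484315 to 6486006. The last of these, on chromosome 12 at 53440173 to 53442143, lay 40075 bp from the summit of an S5p region of 65276 bp. In all, 89 of the 391 covered under 10% of their S5p region and 53 covered 50% or more. The median was 17.5% (quartiles 10.6 and 35.3), close to the 18.1% (7.29 and 32.6) of all 11097 53BP1 regions on S5p.

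The wide regions were spread over all 22 chromosomes, with 3 to 57 on each. As a share of each chromosome's 53BP1 regions they made up 1.81% (chromosome 7, interval 0.874 to 3.31) to 7.11% (chromosome 6, 5.21 to 9.43), against 3.44% overall. Chromosome 22 was next at 6.06% (3.63 to 9.41). The median 53BP1 fold hardly differed between these, at 6.04 for chromosomes 7 and 22 and 6.11 for chromosome 6. The wide regions fell in 272 of the 2003 windows of 1 Mb with any 53BP1 region, and 200 of these 272 held 1.

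Chromosome 6 stood out through a single stretch from 26 to 28 Mb, singled out after its values were seen. It held 22 wide regions among 52 53BP1 regions (42.3%, 28.7 to 56.8), with 13 in its first and 9 in its second window of 1 Mb, the highest counts of any window. Elsewhere on chromosome 6 the share was 22 of 567 (3.88%, 2.45 to 5.82), and without this stretch the list's share was 3.26%. The short arm of this chromosome carries the largest cluster of replication-dependent histone genes, a family of short genes transcribed in S phase. Whether these regions lie at such genes was not tested here.

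The 22 regions were compared with the other wide ones. They spanned 1523 to 3151 bp, with a median of 2322 bp, and 53BP1 folds of 7.62 to 29.2, with a median of 19.7, against 9.26 for the other 369. Their S5p regions were compact, 2108 to 6717 bp with a median of 4128 bp, against 12694 bp for the others. They covered a median of 60.5% of them, against 16.3%. The S5p fold was near that of the others (57.3 against 61.2) and the S2p fold lower (15.4 against 36.9). Both summits were inside 19 of the 22. The widest was at 26156254 to 26159404 (3151 bp, fold 25.2), in an S5p region of 4387 bp and an S2p region of 4607 bp. The other 3 each shared an S5p region with a second wide region that covered its summit: at 26043165 to 26044834 beside 26045270 to 26046792, at 26195725 to 26197747 beside 26198250 to 26200577, and at 27774902 to 27777131 beside 27777443 to 27779233. The folds of these pairs were 15.5 and 27.2, 8.79 and 14.8, and 7.62 and 23.3, so in each the region at the S5p summit was the stronger.

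**Figure D4:**
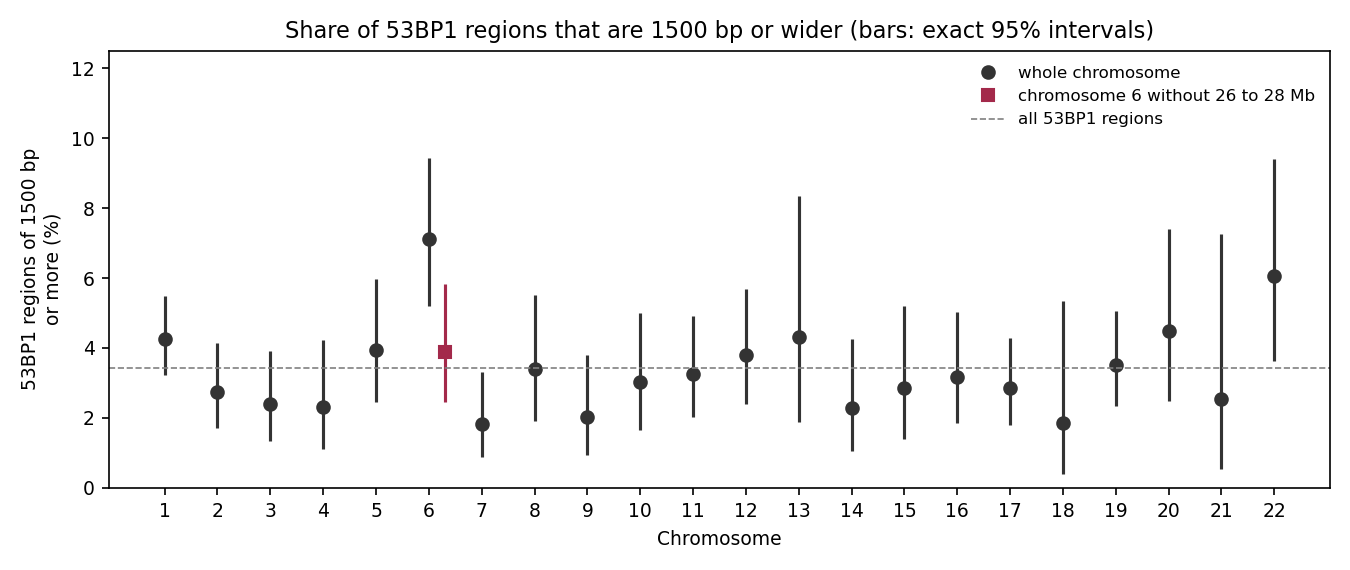
Share of each chromosome's 53BP1 regions that were 1500 bp or wider, in percent, with exact 95% intervals; the red square is chromosome 6 without its stretch from 26 to 28 Mb, and the dashed line is the share over all regions (3.44%). Chromosome 6 is at 7.11% as a whole and at 3.88% without the stretch.

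The other windows with 4 or more wide regions had longer Pol II regions. Chromosome 1 from 153000001 to 154000000 held 7 of 41 53BP1 regions, with median widths of 29253 bp for their S5p regions and 28555 bp for S2p, and a median S2p fold of 66.6. Within it, the region at 153530378 to 153533513 (3136 bp, fold 11.1) lay 157 bp from the S2p summit, and the region at 153537625 to 153539861 (2237 bp, fold 11.8) lay 78 bp from the S5p summit of the same Pol II region. Chromosome 11 from 64000001 to 65000000 held 5 of 29, with a median S2p fold of 19.9. Chromosome 12 from 52000001 to 53000000 held 4 of 25, with a median 53BP1 width of 4229.5 bp and a median S2p fold of 111. A further 4 were found on chromosome 19 from 1000001 to 2000000, and as many on chromosome 8 from 145000001 to 146000000.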

How the data were processed

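ChIP-seq libraries of 53BP1, Pol II S5p and Pol II S2p were analysed, 1 each. Cells were crosslinked with formaldehyde and the chromatin sonicated, per the labels' protocols. Per the submitters' processing notes, the build was hg19 and bcl2fastq 2.20.0.422 was used. Not given in the sources used here are the aligner, the peak caller, its control and any pooling. The lists were used as deposited. The authors' fold enrichment is a ratio over background. Of the deposited −log10 p-value and −log10 q-value, the alternatives used the second, and in 100% of rows the authors' score was 10 times the latter to within 1. The summit offset in bp is also the authors'.

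Rows on chromosomes 1 to 22 were kept (11370, 61263 and 53422 for 53BP1, S5p and S2p). Each 53BP1 region was joined to the Pol II regions it met by at least 1 bp. Where several were met (1 wide region for S5p, 2 for S2p), the one of largest fold was described. Percentiles are ranks by fold within a list. The join was tested on simulated data: 700 of 1000 regions were planted, 700 found, and 0 differed from an exhaustive search. The rule, groups and lists were chosen with earlier results of these data known. Regions named are the 15 widest, the next 10 by fold, those without S5p or S2p, the 5 on the longest S5p regions and the 10 at the limit; those of crowded stretches and the pairs were chosen after their values were seen. As only GRCh38 gene tables were at hand, genes, sequences, the gene lists and markers of the labelled cell type were not analysed here. The work used matplotlib 3.10.9, scipy 1.17.1, pandas 2.3.3, numpy 2.4.6 and Python 3.11.15.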

Additional observations from a re-analysis of the deposited data

How the results depend on the processing

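Of 64 alternative values, 48 stayed, which for shares and medians means that they lay inside the interval of the reported value. Some of the 48 could hardly move. The choice among several Pol II regions bears on 1 wide region for S5p and 2 for S2p, and a share of 100% stays so in any subset of the 391. Counts of regions have no interval and were judged by their ratio to 391. They were 378 (−log10 q-value of 5 or more in every list), 394 (chromosome X included) and 369 (without chromosome 6 from 26 to 28 Mb). Alternatives leaving out chromosome 6 from 26 to 28 Mb, or keeping 1 wide region per S5p region, were added after seeing the data. All 18 of these stayed. With a limit of 1200 bp the share on the strongest 20% of S2p was 86.3%, the share with a neighbour within 5 kb 42.7%, the median Pol II widths 9257.5 bp (S5p) and 7871 bp (S2p), and the distance to the S2p summit 484 bp. With 2000 bp these shares were 97.4% and 62.2%, the share on S2p 100%, the widths 14590 and 14143.5 bp, and the distance to the S5p summit 1472.5 bp. With a −log10 q-value of 5 or more in every list the shares on the strongest 20% of S5p and of S2p were 96.0% and 83.1%, and the share with a neighbour 39.7%. That limit was applied before ranks and gaps were taken, so these 20% and neighbours are those of shorter lists. Ranking by −log10 q-value gave 94.9% for S2p. The cause of these shifts was not tested. A neighbour within 20 kb was found for 75.7%. With limits of 1200 and 2000 bp the whole-list shares remain 47.2% (strongest 20% of S2p) and 25.5% (neighbour within 5 kb). For the limit on −log10 q-value, the ranking by it and the distance of 20 kb, whole-list shares were not computed. Whether the wide regions differed from the whole list at those settings was thus not tested. A further 11 alternatives, on gene starts and sequence, were not run. No paired analysis was possible because no ChIP had a second library. Depth was unknown, so its bearing on the widths was not tested.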
